A study of Homo sapiens with 8 samples.

Results

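Mitosis and G2/M genes were measured as 43 members, chosen by gene symbol from a list of genes that cells need to enter and complete division, out of 63816 entries in the expression table. The symbol SPC25, stood on 2 entries, and the entry with the higher mean was used. All 43 members reached the level needed for testing (1 TPM in at least 4 samples, TPM being the transcript share scaled by transcript length), as did 15590 entries in all. The samples were RNA-Seq of Caco-2, a cell line derived from a human colon adenocarcinoma that does not express Siglec-XII, a sialic acid-binding immunoglobulin-like lectin encoded by SIGLEC12. The groups were 4 samples of Caco-2 transfected with empty vector and 4 samples of Caco-2 transfected with a SIGLEC12 plasmid, here called Siglec-XII, and both were put through selection for stable clones. How many clones stand behind each group is not given in the sources used here, so the effect of the transgene and any difference between the selected populations cannot be told apart. The comparison asks whether the transcripts of the division machinery differed once these cells were made to express Siglec-XII.

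Cells enter mitosis when cyclin B and CDK1 are activated, through removal of inhibitory phosphates by CDC25 phosphatases. The transcription factor FOXM1, together with the MuvB complex, drives a wave of late cell cycle transcription that peaks in G2 and mitosis. Polo-like and Aurora kinases then build the spindle, kinetochores attach chromosomes to it, and the spindle assembly checkpoint holds back the anaphase promoting complex until every chromosome is attached. Securin is then destroyed, separase opens cohesin, and the central spindle and the contractile ring divide the cell. Because transcripts of these genes follow the cell cycle, their level in a culture moves with the share of cells in G2 and mitosis, and in bulk RNA fewer such cells and less RNA per cell cannot be told apart.

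Many promoters of such genes carry a cell cycle genes homology region (CHR), which MuvB complexes bind, and CCAAT boxes, which NF-Y binds. Promoters from RefSeq on GRCh38.p14, running from 250 bases before the start to 50 after it, were found for 36 of the 43 members, as 43 promoters, and were searched on both strands for TTTGAA (CHR) and CCAAT. A CHR match was present in 29 of the 43 members' promoters (67.4%), in 40.5% of the 116 promoters of other mitosis genes, in 1.96% of the 51 promoters of S phase genes and in 15.2% of all 35116 promoters. The CCAAT letters stood in 79.1% of the members' promoters, in 52.6% of those of other mitosis genes, in 54.9% of those of S phase genes and in 34.6% of all promoters. Both motifs stood together in 24 of the members' promoters (55.8%), against 23.3% of those of other mitosis genes and 5.90% of all promoters. Of the 41 CHR matches in the members, 25 began between 60 bases before the start and 30 after it. These matches are descriptions of letters in a window and not bound sites. No promoter entry was matched for AURKA, BIRC5, BUB3, FOXM1, TPX2, TTK and UBE2C.

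The windows from 120 bases before the start to 30 after it are shown for the 7 matched members with an unadjusted p of 0.05 or less in the comparison of the groups, 6 of them lower with Siglec-XII and INCENP higher. Capitals mark CHR matches (TTTGAA, or TTCAAA on the other strand) and CCAAT matches (CCAAT, or ATTGG on the other strand), and each sequence runs 5′ to 3′ on the strand of its gene. HMMR lies on the plus strand at chr5:163460512-163460661, ANLN on the plus strand at chr7:36389742-36389891, CCNB2 on the plus strand at chr15:59105026-59105175, PTTG1 on the plus strand at chr5:160421735-160421884, NUF2 on the plus strand at chr1:163321834-163321983, MAD2L1 on the minus strand at chr4:120066819-120066968 and INCENP on the plus strand at chr11:62123891-62124040.
HMMR: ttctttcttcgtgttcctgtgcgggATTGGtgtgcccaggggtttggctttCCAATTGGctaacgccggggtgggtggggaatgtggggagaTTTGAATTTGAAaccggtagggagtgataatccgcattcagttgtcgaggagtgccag
ANLN: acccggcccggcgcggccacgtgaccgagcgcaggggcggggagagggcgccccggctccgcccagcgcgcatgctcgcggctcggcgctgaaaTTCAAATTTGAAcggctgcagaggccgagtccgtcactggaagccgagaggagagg
CCNB2: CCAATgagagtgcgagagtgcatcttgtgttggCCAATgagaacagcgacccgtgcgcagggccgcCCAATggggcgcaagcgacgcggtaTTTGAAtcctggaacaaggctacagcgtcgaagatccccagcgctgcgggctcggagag
PTTG1: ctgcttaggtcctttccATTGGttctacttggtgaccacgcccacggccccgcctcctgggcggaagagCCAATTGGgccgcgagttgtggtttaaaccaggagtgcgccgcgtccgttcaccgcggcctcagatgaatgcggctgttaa
NUF2: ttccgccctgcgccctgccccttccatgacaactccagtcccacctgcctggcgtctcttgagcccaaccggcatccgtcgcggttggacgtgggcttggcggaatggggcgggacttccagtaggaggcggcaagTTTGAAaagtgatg
MAD2L1: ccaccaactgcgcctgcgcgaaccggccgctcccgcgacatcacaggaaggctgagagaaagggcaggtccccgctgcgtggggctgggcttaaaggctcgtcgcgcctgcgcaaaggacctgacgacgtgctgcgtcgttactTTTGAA
INCENP: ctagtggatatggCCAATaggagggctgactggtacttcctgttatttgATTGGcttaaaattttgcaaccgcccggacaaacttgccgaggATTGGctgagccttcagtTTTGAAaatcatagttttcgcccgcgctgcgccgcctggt

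HMMR held 2 CHR matches side by side, beginning 28 and 22 bases before the start, and 3 CCAAT matches of which 2 overlapped. ANLN likewise held adjoining CHR matches, on opposite strands. CCNB2 held 3 CCAAT boxes followed by a CHR match, the boxes lying at 120, 87 and 54 bases before the start. In MAD2L1 and NUF2 the CHR match lay after the start, at 24 and 16 bases. No CCAAT letters stood in the printed windows of MAD2L1, NUF2 and ANLN. The window of PTTG1 held CCAAT matches but no CHR match. INCENP, which was higher with Siglec-XII, held the same kinds of motif, with CHR 10 bases before the start and 3 CCAAT matches. The 26 members with a CHR match in a promoter had a median log2 difference (Siglec-XII minus empty vector) of -0.05 and ran from -0.23 to 0.14, and the 10 matched members without one had a median of -0.01 and ran from -0.35 to 0.07. These ranges overlapped for most of their length.

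Before the members, the labels and the cells were checked. SIGLEC12 was at 0.11 ± 0.05 in empty vector and 10.70 ± 0.06 in Siglec-XII on the log2(TPM + 1) scale (SD, n = 4 each). The difference of 10.59 gave p = 0.0286 in a two-sided exact permutation test over 70 labellings, the smallest p that 4 against 4 samples allow. Of 14 colon epithelium markers, 10 stayed under 1 TPM in every sample and KRT20, FABP1 and SI were listed at 0, whereas the intestinal transcription factors CDX1 (7.01 to 7.38) and CDX2 (5.13 to 5.64) were present. Of 16 trophoblast markers, 5 stayed under 1 TPM in every sample (CGB3, CGB5, CGB8, GCM1 and ELF5). CGA, ERVW-1, PSG1 and ERVFRD-1 reached at most 2.48 TPM and CYP19A1 at most 7.29. GATA3 (8.37 to 8.91 on the log2 scale) and HSD3B1 (8.31 to 8.53) were high, with TFAP2C, GATA2, TEAD4 and TFAP2A below them. These cells thus carried few of the colon markers that their label implies, and only part of the trophoblast list. Summed colon markers were at 163 to 186 TPM in empty vector and 190 to 216 in Siglec-XII, trophoblast markers at 1109 to 1231 and 1153 to 1194, and markers of fibroblasts (3 of 9 under 1 TPM in every sample, THY1 listed at 0) at 99.2 to 117 and 112 to 123. The colon sum was nearly all CDX1 (up to 165 TPM) and CDX2 (up to 48.8), the other colon markers reaching at most 1.35 TPM. The part of these marker levels in the results on the members was not tested.

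RNA of the members was found in all 8 samples, for most of them above the median level of tested protein-coding entries. Each of the 43 members was at 1 TPM or more in every sample, and their median level was 81.4 TPM, the 84.1st percentile of tested protein-coding entries. In TPM, which is scaled by transcript length, UBE2C, the ubiquitin-conjugating enzyme of the anaphase promoting complex, was the highest at 388, followed by its activator CDC20 at 258, cyclin B1 (CCNB1) at 257 and securin (PTTG1) at 242. The spindle assembly factor TPX2 was at 228, FOXM1 at 188 and Aurora A (AURKA) at 183. The lowest were the kinetochore motor CENPE at 11.4, the spindle pole protein ASPM at 13.0, the NDC80 complex subunit SPC24 at 14 and the phosphatase CDC25C at 16.6. Of the members, 39 lay above the median protein-coding level and 10 above its 90th percentile. Together they made up 0.435% ± 0.00833 of all TPM in empty vector and 0.426% ± 0.00813 in Siglec-XII (SD, n = 4 each), ranges that overlapped (0.428% to 0.446% and 0.415% to 0.434%).

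**Figure D1:**
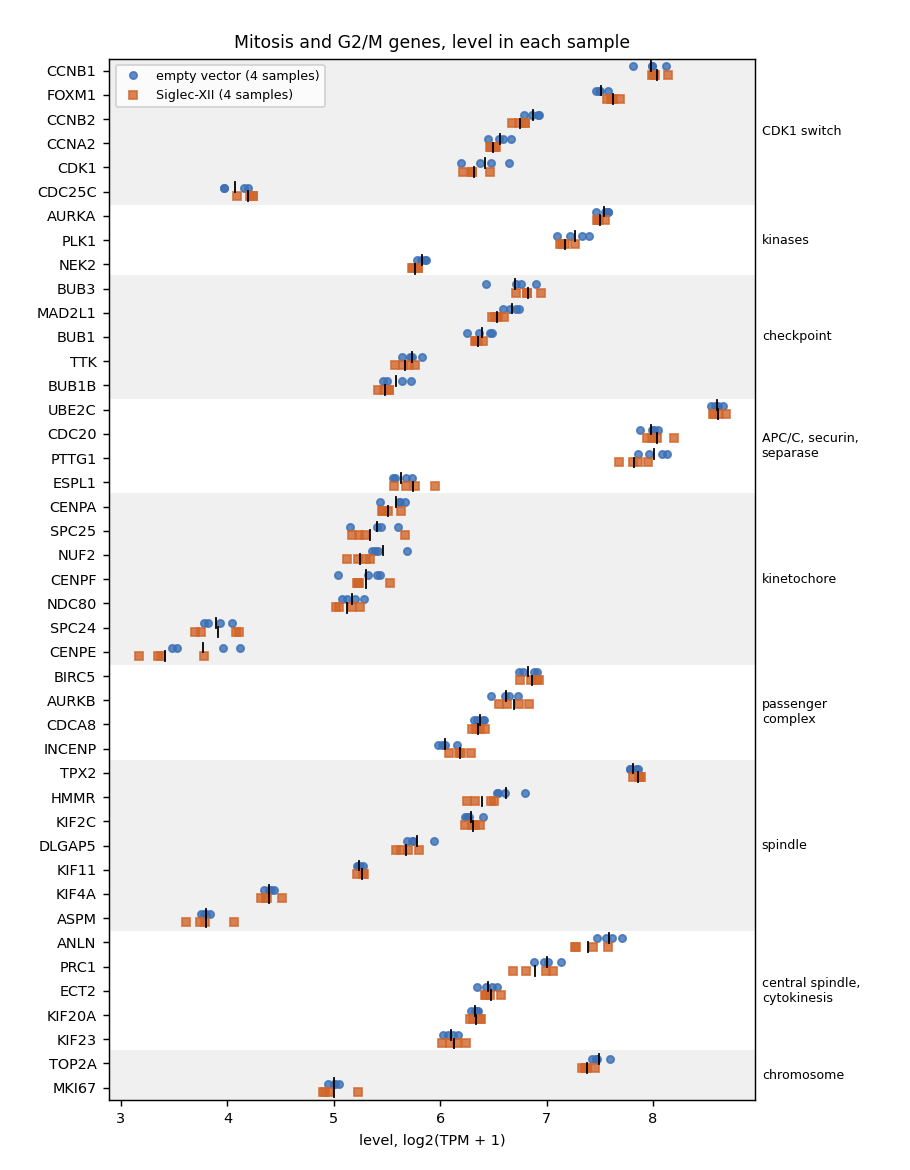
Level of each of the 43 members on the log2(TPM + 1) scale, in 4 empty vector samples (circles) and 4 Siglec-XII samples (squares), grouped by role and ordered by level within a role. Black ticks are group means. The groups lie side by side for most members, and only HMMR and NUF2 have all Siglec-XII samples below all empty vector samples.

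No member passed an adjusted p of 0.05 in limma with Benjamini-Hochberg adjustment over all tested entries (lowest 0.194, HMMR), where 101 of the 15590 entries did (0.648%). At an unadjusted p of 0.05 or less, 6 members were lower with Siglec-XII (14%, against 2.61% of all tested entries) and 2 were higher (4.65%, against 13.9% of all tested entries). The lower ones were HMMR, MAD2L1, ANLN, NUF2, PTTG1 and CCNB2, and the higher ones FOXM1 and INCENP. Values of the groups did not overlap for 2 members, both lower (1.68% of all tested entries), and for 0 members in the other direction (9.17% of all tested entries). The log2 difference was below 0 for 24 of the 43 (55.8%), against 31.9% of all tested entries. The median of the members was -0.01, that of all tested entries 0.07 and that of protein-coding entries 0.07. Thus the members lay near 0 in a table in which most entries were slightly higher with Siglec-XII, a difference of medians of -0.08 that is described here without a test.

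The differences as deposited were small in absolute size. In 42 of the 43 members the difference was under 0.25 on the log2 scale, and in 42 the 95% interval stayed within 0.5 of 0. Over the alternatives given below, HMMR went as low as -0.30, ANLN -0.29, NUF2 -0.28 and CENPE -0.48. The half-width of the interval ran from 0.09 (TPX2) to 0.39 (CENPE) with a median of 0.15, so changes smaller than that were not resolvable for many members. For 35 members the interval held 0. The median pooled SD within groups was 0.10 for the members and 0.14 for all tested entries.

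**Figure D2:**
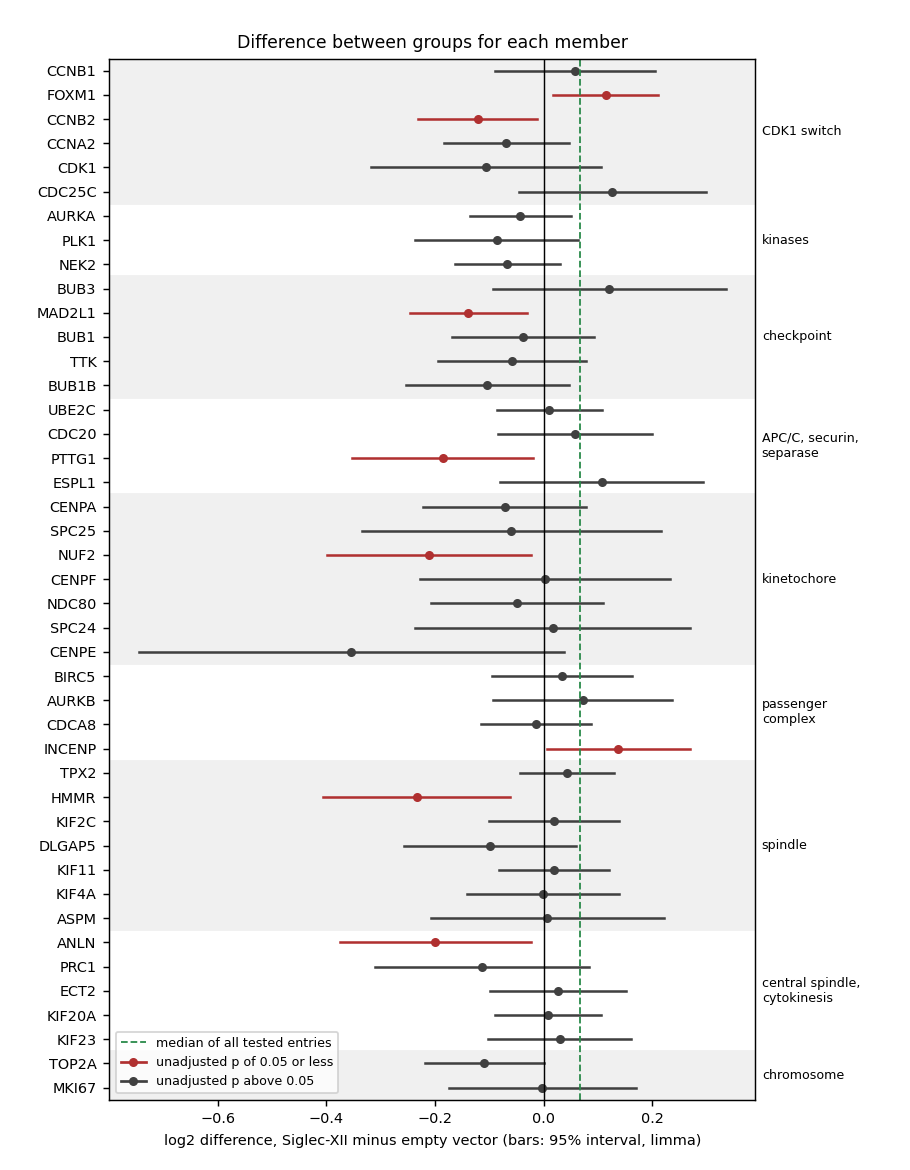
Log2 difference between groups for each member (point, Siglec-XII minus empty vector) with its 95% interval from limma (bar), grouped by role. The dashed line is the median of all tested entries, 0.07. The 8 members in red have an unadjusted p of 0.05 or less, 6 to the left of 0 and FOXM1 and INCENP to the right.

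Among genes of the CDK1 switch and its transcription factor, 3 of 6 were higher and 3 lower, with a median difference of -0.005. Beside this and the counts by role that follow, 31.9% of all tested entries lay below 0. The mitotic kinase CDK1 itself was at 6.20, 6.38, 6.48 and 6.65 in empty vector samples 1 to 4 and at 6.30, 6.22, 6.29 and 6.47 in Siglec-XII samples 1 to 4, inside the empty vector range. Its difference was -0.11 (95% interval -0.32 to 0.11). Cyclin B1, its partner in mitotic entry, gave 0.06 (-0.09 to 0.21), and cyclin A2 (CCNA2), which acts from S phase to early mitosis, -0.07 (-0.18 to 0.05).

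Cyclin B2 (CCNB2), the Golgi-associated mitotic cyclin, was at 6.79, 6.92, 6.87 and 6.93 in empty vector and at 6.68, 6.74, 6.80 and 6.79 in Siglec-XII. All but the first empty vector sample lay above every Siglec-XII sample. Its difference of -0.12 (95% interval -0.23 to -0.01) had a limma unadjusted p of 0.0337 and an adjusted p of 0.263. The gene lies on chromosome 15 from 59397325 to 59417244 (hg19, plus strand, 9 exons).

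FOXM1 (chromosome 12, 2966846 to 2986340, minus strand, 9 exons) moved the other way. It was at 7.50, 7.58, 7.46 and 7.49 in empty vector and at 7.57, 7.61, 7.69 and 7.62 in Siglec-XII, where only empty vector sample 2 reached the Siglec-XII range. The difference of 0.11 (0.02 to 0.21) had a limma unadjusted p of 0.0254 and an adjusted p of 0.235, and corresponds to 181 ± 6.16 against 196 ± 6.88 TPM. CDC25C, which activates CDK1 at mitotic entry, gave 0.13 (-0.05 to 0.30).

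Aurora A, PLK1 and NEK2, kinases of the centrosome and spindle, all had differences below 0, none at an unadjusted p of 0.05 or less. Polo-like kinase 1 (PLK1) gave -0.09 (95% interval -0.24 to 0.06), NEK2 -0.07 (-0.16 to 0.03) and Aurora A -0.04 (-0.14 to 0.05). PLK1 was at 7.40, 7.22, 7.33 and 7.10 in empty vector and at 7.27, 7.18, 7.14 and 7.12 in Siglec-XII, so the Siglec-XII samples fell within the empty vector range. Aurora A held close together, within 0.11 over all 8 samples.

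In the spindle assembly checkpoint, 4 of 5 members had differences below 0, with a median of -0.06. MAD2L1, which forms the inhibitor that blocks CDC20, was at 6.66, 6.59, 6.71 and 6.74 in empty vector and at 6.60, 6.49, 6.55 and 6.51 in Siglec-XII. The groups met only where empty vector sample 2 and Siglec-XII sample 1 crossed. The difference of -0.14 (95% interval -0.25 to -0.03) had a limma unadjusted p of 0.0175 and an adjusted p of 0.211, at 101 ± 4.81 against 91.9 ± 2.93 TPM. MAD2L1 lies on chromosome 4 from 120976778 to 120988013 (hg19, minus strand, 5 exons).

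The other checkpoint members did not reach that limit. The kinase BUB1 gave -0.04 (95% interval -0.17 to 0.09), the checkpoint kinase TTK -0.06 (-0.19 to 0.08) and BUB1B, which encodes BUBR1, -0.10 (-0.25 to 0.05). BUB3, the partner of both BUB1 and BUBR1, gave 0.12 (-0.09 to 0.34), with empty vector sample 1 at 6.43 and all other samples between 6.71 and 6.95.

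Of the genes of the anaphase promoting complex, securin and separase, 3 of 4 had differences above 0, and securin stood apart from them. PTTG1, the inhibitor of separase, was at 8.13, 7.86, 7.96 and 8.09 in empty vector and at 7.81, 7.68, 7.95 and 7.86 in Siglec-XII, so the ranges overlapped between 7.86 and 7.95. The difference of -0.19 (95% interval -0.35 to -0.02) had a limma unadjusted p of 0.0321 and an adjusted p of 0.258, at 258 ± 21.7 against 226 ± 17.5 TPM. PTTG1 lies on chromosome 5 from 159848862 to 159855746 (hg19, plus strand, 6 exons). Separase (ESPL1), the protease that cuts cohesin, gave 0.11 (-0.08 to 0.29), CDC20 0.06 (-0.08 to 0.20) and UBE2C 0.01 (-0.09 to 0.11).

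Among 7 kinetochore and centromere genes, 5 had differences below 0 and the median was -0.06. NUF2, a subunit of the NDC80 complex that binds microtubules, was at 5.35, 5.41, 5.39 and 5.69 in empty vector and at 5.34, 5.22, 5.31 and 5.13 in Siglec-XII. The groups did not overlap, although Siglec-XII sample 1 lay just under the lowest empty vector sample. The difference of -0.21 (95% interval -0.40 to -0.02) had a limma unadjusted p of 0.0315 and an adjusted p of 0.256, at 43.2 ± 5.0 against 37.1 ± 2.49 TPM. NUF2 lies on chromosome 1 from 163236366 to 163325554 (hg19, plus strand, 14 exons).

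The subunits that share that complex with NUF2 gave smaller differences, NDC80 -0.05 (95% interval -0.21 to 0.11) and SPC24 0.02 (-0.24 to 0.27). SPC25, the partner of SPC24, gave -0.06 on the entry used and 0.05 on its other entry, which share a symbol and can split reads. Summed over both entries, SPC25 was at 5.81 ± 0.14 in empty vector and 5.78 ± 0.13 in Siglec-XII, and its range over the 8 samples narrowed to 0.34 from 0.51 and 0.88 for the single entries. The centromeric histone CENPA gave -0.07 (-0.22 to 0.08).

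CENPE, which carries chromosomes along the spindle, had the largest difference of any member at -0.35, and also the widest interval (-0.75 to 0.04). It was at 4.12, 3.48, 3.53 and 3.95 in empty vector and at 3.78, 3.34, 3.38 and 3.17 in Siglec-XII. Within empty vector, samples 1 and 4 were higher than samples 2 and 3 by more than the difference between group means, and the range of 0.96 over all samples was the widest of the members. Its limma unadjusted p was 0.0712 and its adjusted p 0.347. CENPF, a kinetochore and nuclear envelope protein, gave 0.00 (-0.23 to 0.23).

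In the chromosomal passenger complex, 3 of 4 members had differences above 0, with a median of 0.05. INCENP, its scaffold, was at 6.01, 6.16, 6.05 and 5.98 in empty vector and at 6.08, 6.19, 6.18 and 6.29 in Siglec-XII. Empty vector sample 2 lay above Siglec-XII sample 1, and the other samples kept apart. The difference of 0.14 (95% interval 0.01 to 0.27) had a limma unadjusted p of 0.0429 and an adjusted p of 0.287. INCENP lies on chromosome 11 from 61891470 to 61920641 (hg19, plus strand, 19 exons). The kinase AURKB gave 0.07 (-0.09 to 0.24), survivin (BIRC5) 0.03 (-0.09 to 0.16) and borealin (CDCA8) -0.01 (-0.11 to 0.09).

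Spindle motors and microtubule proteins were split, with 4 of 7 above 0 and a median of 0.01. HMMR, a spindle protein that also binds hyaluronan, had the lowest p of all members. It was at 6.61, 6.54, 6.55 and 6.80 in empty vector and at 6.47, 6.26, 6.50 and 6.32 in Siglec-XII, with every Siglec-XII sample below every empty vector sample. The difference of -0.23 (95% interval -0.41 to -0.06) had a limma unadjusted p of 0.0133 and an adjusted p of 0.194, at 97.8 ± 8.62 against 83 ± 6.89 TPM. HMMR lies on chromosome 5 from 162887209 to 162918947 (hg19, plus strand, 18 exons), and its antisense transcript HMMR-AS1 stayed under 1 TPM in every sample.

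DLGAP5, a microtubule-stabilizing protein, gave -0.10 (95% interval -0.26 to 0.06). The motors differed little between the groups. The Eg5 motor KIF11 gave 0.02 (-0.08 to 0.12), the microtubule depolymerase KIF2C 0.02 (-0.10 to 0.14) and the chromokinesin KIF4A -0.00 (-0.14 to 0.14). TPX2 gave 0.04 (-0.04 to 0.13), the narrowest interval of the members. KIF11 was also the least variable of them, with a range of 0.07 over all 8 samples, and ASPM gave 0.01 (-0.21 to 0.22).

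At the central spindle and in cytokinesis, 3 of 5 members had differences above 0 and the median was 0.01. Anillin (ANLN), the scaffold of the contractile ring, was at 7.71, 7.61, 7.47 and 7.56 in empty vector and at 7.58, 7.27, 7.44 and 7.27 in Siglec-XII. Siglec-XII sample 1 reached into the empty vector range and the other 3 lay below it. The difference of -0.20 (95% interval -0.38 to -0.02) had a limma unadjusted p of 0.0307 and an adjusted p of 0.253, at 192 ± 13.1 against 167 ± 17.6 TPM. ANLN lies on chromosome 7 from 36429430 to 36493400 (hg19, plus strand, 24 exons). PRC1, which bundles central spindle microtubules, gave -0.11 (-0.31 to 0.08).

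The centralspindlin motor KIF23 gave 0.03 (95% interval -0.10 to 0.16), the RhoA activator ECT2 0.03 (-0.10 to 0.15) and the motor KIF20A 0.01 (-0.09 to 0.11). In chromosome structure, topoisomerase II alpha (TOP2A) was at 7.59, 7.47, 7.43 and 7.47 in empty vector and at 7.46, 7.33, 7.38 and 7.37 in Siglec-XII. Siglec-XII sample 1 alone reached the empty vector range. Its difference of -0.11 (-0.22 to 0.00) had a limma unadjusted p of 0.0504. MKI67, the chromosome surface protein used as the Ki-67 proliferation marker, gave -0.00 (-0.17 to 0.17).

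Single samples bore on these values. Siglec-XII sample 2 was the lowest of the 8 for 13 members and the highest for 0, and empty vector sample 1 was also lowest for 13, while empty vector sample 4 was highest for 9 and Siglec-XII sample 4 for 11. The count of 8 members at an unadjusted p of 0.05 or less became 2 without Siglec-XII sample 2 (HMMR lower and FOXM1 higher), where 2.41% of all tested entries were lower and 12.1% higher. It became 4, all lower, without empty vector sample 4 (2.37% and 12.2% of all tested entries), and 5, with 4 lower, without Siglec-XII sample 4 (2.58% and 10.1%). The count of members whose groups did not overlap rose from 2 to 8 without Siglec-XII sample 1, of which 6 were lower and 2 higher (2.76% and 11.8% of all tested entries). It rose to 6, all lower, without empty vector sample 1 (3.09% of all tested entries lower), and to 6, of which 4 were lower and 2 higher, without empty vector sample 2 (2.44% and 16.9%). In Siglec-XII sample 1, the 6 members of 6000 nt or more had a median deviation of 0.23 from their own means. HMMR kept an unadjusted p of 0.05 or less under 19 of 19 alternatives, MAD2L1 under 17, NUF2 under 15, PTTG1 under 14, CCNB2 and ANLN under 13, FOXM1 under 10 and INCENP under 7.

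**Figure D3:**
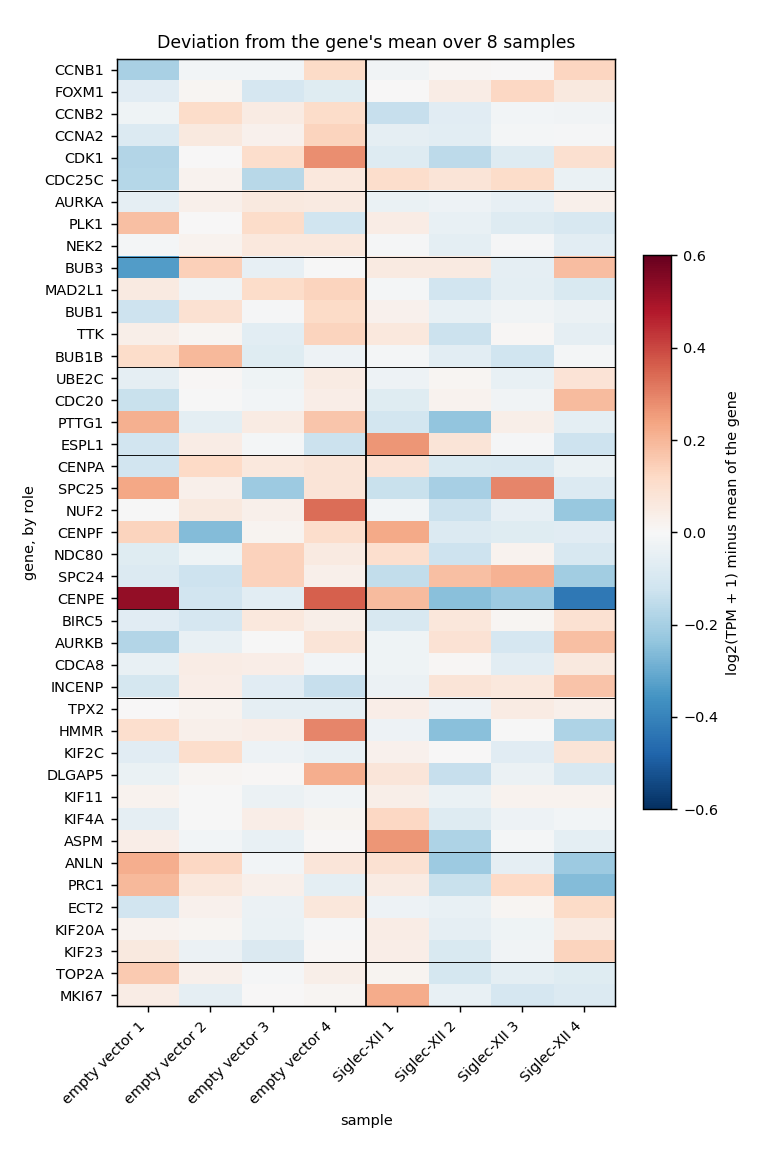
Deviation of each member from its own mean over the 8 samples, on the log2(TPM + 1) scale, in rows by role and columns by sample, red above and blue below the mean. CENPE, the most variable member, is highest in empty vector 1 at 4.12 and lowest in Siglec-XII 4 at 3.17, and the Siglec-XII 2 column is the lowest of the 8 for 13 members.

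The scaling of the table moved the split between directions. With equal upper quartiles in every sample, 13 members were lower and 0 higher at an unadjusted p of 0.05 or less, where 5.68% of all tested entries were lower and 7.20% higher. With quantile normalization 15 were lower and 0 higher (5.63% and 7.02% of all tested entries), and with the mitochondrial and the 100 most abundant entries left out 10 were lower and 0 higher (4.33% and 8.86%). FOXM1 gave 0.05, 0.06 and 0.07 under these scalings, in that order, against 0.11 as deposited, and INCENP 0.08, 0.08 and 0.10 against 0.14, and neither stayed at an unadjusted p of 0.05 or less. With equal upper quartiles 37 members lay below 0, 13 having changed sign. No member passed an adjusted p of 0.05 in limma under any of the 19 alternatives (lowest 0.113), and the median of the members was below that of all tested entries under all 19, by between -0.12 and -0.03.

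**Figure D4:**
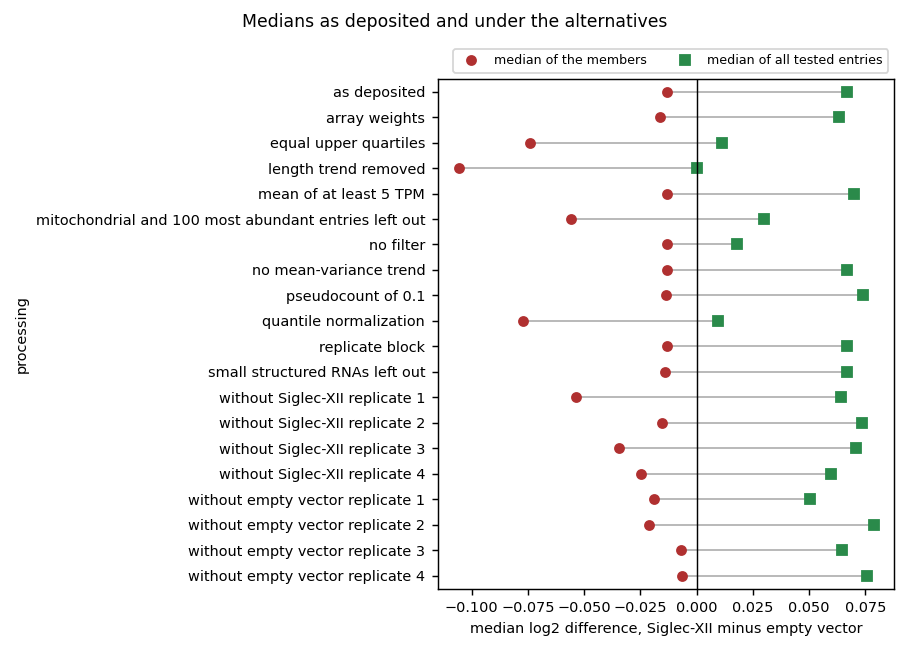
Median log2 difference (x axis, Siglec-XII minus empty vector) of the members (circles) and of all tested entries (squares), as deposited and under each of 19 alternatives (y axis). The circle lies left of the square for every setting, and both shift left where the samples were rescaled.

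Differences in this table also rose with transcript length, taken as the length of the Ensembl canonical transcript. The median of protein-coding entries was -0.01 under 1000 nt (751 entries) and rose through 0.04, 0.06, 0.08 and 0.09 in the longer classes to 0.11 at 6000 nt or more (2179 entries). Of the 42 members with a length, 35 lay below the median of their length class. Members of 2000 to 3000 nt (13 genes, among them PLK1, NEK2 and NDC80) had a median of -0.04 against 0.06, and those of 6000 nt or more (BUB3, ESPL1, CENPE, CENPF, ASPM and MKI67) 0.00 against 0.11. With the length trend removed, 14 of 42 members were lower and 0 higher at an unadjusted p of 0.05 or less, where 6.06% of the 14071 entries tested were lower and 6.26% higher, and FOXM1 and INCENP gave 0.04 and 0.05.

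**Figure D5:**
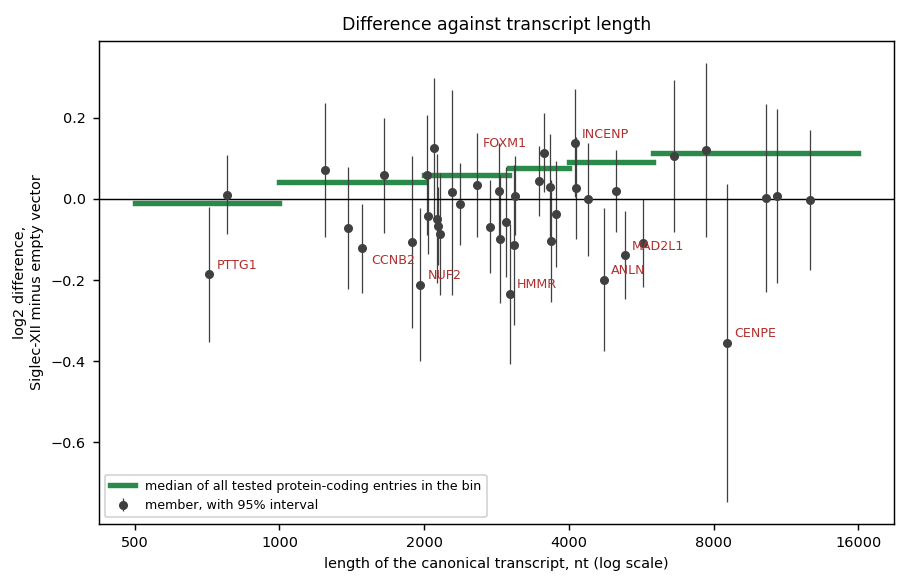
Log2 difference of each member with a length (points, 95% interval from limma as bars) against the length of its canonical transcript in nt on a log axis. Green lines are medians of tested protein-coding entries in each length class, the outer classes being drawn to the outermost axis ticks. Members with an unadjusted p of 0.05 or less, and CENPE, are named, and 35 of 42 members lie under the line of their class.

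Other genes of the pathway were taken from a list kept separate from the members. As a whole they had a median nearer to that of all tested entries, but the parts of the list differed. The median was -0.02 for 34 other kinetochore and centromere genes, of which 58.8% lay below 0, against 31.9% of all tested entries. It was 0.01 for 21 other spindle, motor and cytokinesis genes. For 18 other kinases, phosphatases and regulators it was 0.02, and for 14 other checkpoint and anaphase promoting complex genes 0.03. Of 104 other mitosis genes tested, 0 passed an adjusted p of 0.05 in limma, and the median difference was 0.02. At an unadjusted p of 0.05 or less, 9 were higher (8.65%, against 13.9% of all tested entries) and 4 lower (3.85%, against 2.61%). The lowest adjusted p was 0.0860, for CDC25A, a phosphatase that activates cyclin-dependent kinases. CDC25A was at 5.58, 5.78, 5.61 and 5.61 in empty vector and at 5.91, 5.86, 5.93 and 6.04 in Siglec-XII, so the groups did not overlap, and its difference was 0.29 (95% interval 0.15 to 0.43). CDC25B, of the same family, gave 0.19 (adjusted p 0.147) and WEE1, the kinase that opposes them, 0.18 (adjusted p 0.196). The lowest by moderated t statistic were ANAPC10, PKMYT1 and CENPW. ANAPC10, a subunit of the anaphase promoting complex, gave -0.16 (adjusted p 0.153). PKMYT1, an inhibitory kinase of CDK1, gave -0.22 (adjusted p 0.201), and the centromere protein CENPW -0.20 (adjusted p 0.228).

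Condensin and cohesin genes had differences above 0 for 15 of 17, so that 11.8% lay below 0, against 31.9% of all tested entries. Their median was 0.08, close to the 0.07 of all tested entries. Of 43 S phase genes tested, 0 passed the adjusted limit in limma, 7 were higher (16.3%, against 13.9% of all tested entries) and 1 lower (2.33%, against 2.61%) at an unadjusted p of 0.05 or less, and the median was 0.06. The medians thus ran from -0.01 for the members through 0.02 for other mitosis genes to 0.06 for S phase genes, and the differences between these lists were not tested.

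Copies of the members and transcripts antisense to them took little signal. Of 19 pseudogenes, paralogs and antisense transcripts found by symbol, 10 were listed at 0 throughout and 17 stayed under 1 TPM in every sample, the retrocopies PTTG2, PTTG3P and KIF4B among them. The pseudogene AURKAP1 reached 1.29 TPM in empty vector sample 1, and PRC1-AS1, which is antisense to PRC1, reached 1.16 TPM in Siglec-XII sample 1. AURKA and PRC1 were at 183 and 123 TPM.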

How the data were processed

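RNA-Seq was available for 4 empty vector and 4 Siglec-XII samples of Caco-2, grouped by their labels. The authors deposited log2(TPM + 1) values for 63816 gene entries, made with kallisto (version 0.45.0 in the submitters' processing notes) against hg19. Read totals are not given in the table, so the depth of each value is unknown and no counting interval is printed. The labels describe ribosomal RNA-depleted total RNA, whereas the study's methods describe a poly(A) mRNA kit and technical replicate libraries. The submitters' design text speaks of 3 cultures for each condition while 4 samples are listed for each. Whether the 4 samples of a group are separate cultures is therefore not settled, and n may exceed the number of cultures, so p-values measure the spread between these samples, which may be technical.

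Members were matched by symbol, and the members and gene lists were chosen with earlier results of these data known. Entries at 1 TPM or more in at least 4 samples were kept (15590), and limma 3.58.1 in R 4.3.3 was fitted to all of them (group only, eBayes with a mean-variance trend, Benjamini-Hochberg adjustment), since the count-based test the study names needs counts and TPM holds none. The fit was tested on simulated data. Of 43 members all are named, by role. Of the other mitosis genes, those past an adjusted p of 0.05 were to be named, otherwise the 3 highest and 3 lowest by moderated t statistic. SIGLEC12 was tested by exact permutation. Genes and lengths come from GENCODE annotation on hg19, promoters from RefSeq on GRCh38.p14. The alternatives were other scalings, filters, pseudocounts, fits and each sample left out in turn. Summing the SPC25 entries was chosen after seeing the data.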

Additional observations from a re-analysis of the deposited data

Results flagged for a closer look

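A sample lay far from the other 3 of its group for 2 of the genes described, judged by Dixon's gap ratio against its 95% critical value for groups of 4 samples. CENPF was at 5.53 in Siglec-XII sample 1 and at 5.22 to 5.24 in the other Siglec-XII samples, a gap of 0.946 of the group's range. CDC25A, which is outside the members, was at 5.78 in empty vector sample 2 and at 5.58 to 5.61 in the other empty vector samples, a gap of 0.866. Chance alone passes this limit in about 1 in 20 groups, and every gene named was examined in both groups.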

How the results depend on the processing

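The 43 members gave 0 calls at an adjusted p of 0.05 as deposited and under all 19 alternatives, and their median stayed below that of all tested entries. The count of members at an unadjusted p of 0.05 or less was 8 as deposited. It became 13 with equal upper quartiles, 14 with the length trend removed and 15 with quantile normalization, all lower. In that order, 5.68%, 6.06% and 5.63% of all tested entries were lower (2.61% as deposited). Without the mean-variance trend it became 3, all lower (2.51% of all tested entries lower and 13.1% higher). With each sample left out it ran from 2 to 8. There 2.37% to 3.30% of all tested entries were lower and 10.1% to 16.7% higher. The count without overlap of the groups was 2 as deposited. It became 9 with equal upper quartiles, 11 with the length trend removed and 10 with quantile normalization, all lower. With the mitochondrial and the 100 most abundant entries left out it became 8, also all lower. In that order, 3.49%, 3.57%, 3.23% and 2.66% of all tested entries were lower without overlap (1.68% as deposited). With each sample left out the count ran from 2 to 8. There 2.21% to 3.09% of all tested entries were lower without overlap and 10.7% to 16.9% higher. The median difference of the members, -0.013 as deposited, became -0.074 with equal upper quartiles, -0.106 with the length trend removed, -0.077 with quantile normalization and -0.056 with the abundant entries left out, and ran from -0.053 to -0.0064 with each sample left out. The cause of these shifts was not tested. With a replicate block on the sample numbers, 7 members were lower and 0 higher at an unadjusted p of 0.05 or less (3.01% and 12.8% of all tested entries), and 0 passed the adjusted limit. Same-numbered samples showed little common deviation (correlations 0.040, 0.028, -0.074 and 0.059), and only numbers 2 and 4 correlated best with their own number. These values give no clear sign that the numbers pair the samples but, without a reference for their size, cannot exclude it. Of the comparisons of single genes, 889 moved by less than the spread between replicates and 42 by more. The 42 all lay in the rescalings, 11 with equal upper quartiles, 15 with the length trend removed, 11 with quantile normalization and 5 with the abundant entries left out. Other filters, the fit without the mean-variance trend and the replicate block leave a gene's log2 difference unchanged. Their comparisons are among the 889 and could not have moved. Members changed sign in 75 cases over 13 alternatives, 0 of them in a member at an unadjusted p of 0.05 or less as deposited. The number of samples limits precision, with interval half-widths up to 0.39 for CENPE.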
